A study of Mus musculus with 6 samples.

Results

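The cytosolic ribosomal proteins of megakaryocyte-erythroid progenitors were examined on 6 microarrays. The genes were taken by symbol. A gene entered if its probe set carried a single symbol made of Rpl or Rps and a number, with an optional paralog suffix, or if it was Rplp0, Rplp1, Rplp2 or Rpsa. This gave 29 probe sets of 28 genes among 19661 genes tested, with the brighter probe set kept for the 1 gene that had several (Rps9). In RefSeq, 89 symbols meet the same pattern, 84 of them protein-coding, so the 28 are a part of the family. The remaining symbols, among them Rpsa, were not analysed here. By subunit and type, 12 were large subunit genes and 9 small subunit genes. Of the paralogs, 3 were grouped as broadly expressed (Rpl7l1, Rpl32l and Rps27l) and 4 as tissue-restricted (Rpl3l, Rpl10l, Rpl39l and Rps4l). Rpl32l was placed by the ending of its symbol alone.

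The first group was Fog1ki/ki, mice homozygous for a knock-in at Fog1 (Zfpm1), and the second was Fog1+/+, mice with intact Fog1 alleles, both on the B6.129 background. FOG1 works as a partner of GATA1, a master regulator of erythroid and megakaryocyte genes. The labels do not describe the altered allele, which is known from outside them as one that disrupts contact with the NuRD complex. The progenitors, which give rise to red cells and platelets, were sorted from bone marrow as Kit-positive cells without lineage markers, Sca1 or CD34 and with little FcγRII/III. There were 3 arrays per genotype, which the labels name biological replicates. Neither the number, age nor sex of the animals behind an array is stated in the labels. The p-values judge a difference against the spread between these arrays, with the variance of each gene moderated over all genes. How far that spread covers variation between animals is not known.

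A ribosome has a large subunit, which forms peptide bonds, and a small subunit, which decodes the mRNA, and each holds a fixed set of proteins on its ribosomal RNA. Erythroid progenitors are known for their need of ribosome supply: in humans, loss of 1 copy of RPS19 and several other ribosomal protein genes causes Diamond-Blackfan anaemia, and loss of RPS14 underlies the anaemia of the 5q- syndrome. Some ribosomal proteins have paralogs with narrower expression, such as Rpl3l in heart and skeletal muscle and Rpl10l and Rpl39l in testis.

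Levels are deposited log2 values after RMA, which corrects the background, equalises the distributions of the arrays and summarises the probes of a probe set. Array medians lay between 6.02 and 6.15. Of the 8 progenitor markers, 0 passed (limma adjusted p under 0.05, as 0.773% of all genes did) and they did not move one way. Kit (9.72 to 10.05 in Fog1ki/ki and 10.26 to 10.30 in Fog1+/+) and Gata1 (8.09 to 8.47 in Fog1ki/ki and 8.54 to 8.57 in Fog1+/+) were lower in every Fog1ki/ki array. Itga2b (6.73 to 6.86 in Fog1ki/ki and 6.32 to 6.67 in Fog1+/+) and Tal1 (7.84 to 7.96 in Fog1ki/ki and 7.72 to 7.78 in Fog1+/+) were higher in every one. Arrays of the 2 genotypes were fully apart, in either direction, in 14.8% of all genes. Gfi1b, Klf1, Epor and Zfpm1 overlapped, with log2 differences of -0.073 to 0.24. Markers of other cells were not all low. The neutrophil gene S100a8 measured 8.42 to 8.66 in Fog1ki/ki and 8.51 to 9.17 in Fog1+/+. Mpo of granulocyte-macrophage cells measured 6.62 to 6.64 in Fog1ki/ki and 6.06 to 6.71 in Fog1+/+. Other markers of the same cells were dimmer. Ly6g of neutrophils averaged 4.43 in Fog1ki/ki and 4.75 in Fog1+/+. Of the granulocyte-macrophage genes, Elane averaged 5.16 in Fog1ki/ki and 5.04 in Fog1+/+, and Ctsg 5.16 in Fog1ki/ki and 5.09 in Fog1+/+. The T cell gene Cd3e measured 6.67 to 6.85 in Fog1ki/ki and 6.55 to 6.79 in Fog1+/+, above the array medians. Cd3g of T cells averaged 4.59 in Fog1ki/ki and 4.87 in Fog1+/+ and was lower in every Fog1ki/ki array. Genotype means of Cd79a (B cell), Adgre1 and Csf1r (macrophage) and Flt3 (stem cell) lay between 3.96 and 5.41. Cd34, which the sort selected against, measured 4.39 to 4.56 in Fog1ki/ki and 4.34 to 4.40 in Fog1+/+, below the lower quartile of every array (4.81 to 4.92). Of the 3 mast cell markers, Ms4a2 measured 7.80 to 9.15 in Fog1ki/ki and 4.67 to 4.80 in Fog1+/+. It passed (adjusted p = 0.00073 in limma), and its log2 difference of 3.79 was the highest of all genes tested. Fcer1a measured 5.24 to 7.46 in Fog1ki/ki and 4.61 to 4.65 in Fog1+/+ (adjusted p = 0.147 in limma). Cpa3 measured 4.31 to 5.65 in Fog1ki/ki and 4.08 to 4.55 in Fog1+/+ (adjusted p = 0.648 in limma). The part of such cells in the values below was not tested. In a sorted bulk sample, fewer cells of a type and less RNA per cell cannot be told apart. Replicate 3 of each genotype stood apart in its Y-linked genes, with a mean of 4.14 in Fog1ki/ki and 4.16 in Fog1+/+ over Eif2s3y, Uty and Kdm5d, while replicates 1 and 2 had 8.89 and 8.81 in Fog1ki/ki and 8.79 and 8.93 in Fog1+/+.

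Promoters are shown to give the sequence context of the genes that carry the comparison of ubiquitous genes with paralogs. RefSeq windows on GRCm38.p6, from 250 bases before to 50 bases after an annotated start, existed for 23 of the 28 genes (all but Rplp1, Rpl8, Rpl30, Rps14 and Rps4l). Many ribosomal protein mRNAs begin with a 5′ terminal oligopyrimidine tract, through which their translation is controlled. An unbroken run of at least 6 C or T bases that held the annotated first base was present in 6 of 17 ubiquitous genes, 1 of 3 broadly expressed paralogs (Rpl32l) and 0 of 3 tissue-restricted paralogs, against 8.5% of 27025 genes with a window. Below are 3 ubiquitous genes with such a run (Rpl14, Rplp2 and Rps9), 1 without (Rpl12) and 2 tissue-restricted paralogs (Rpl3l at the first of its listed starts, and Rpl39l). Each stretch runs from 80 bases before the start to 20 bases after it on the plus strand, and capitals mark the run of pyrimidines at the start.
Rpl14, chr9:120571437-120571536: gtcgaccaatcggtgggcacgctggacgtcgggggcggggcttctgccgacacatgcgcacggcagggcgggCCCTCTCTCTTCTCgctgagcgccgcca
Rplp2, chr7:141447571-141447670: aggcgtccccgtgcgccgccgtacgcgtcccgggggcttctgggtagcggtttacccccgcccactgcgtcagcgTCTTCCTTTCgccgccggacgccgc
Rps9, chr7:3703961-3704060: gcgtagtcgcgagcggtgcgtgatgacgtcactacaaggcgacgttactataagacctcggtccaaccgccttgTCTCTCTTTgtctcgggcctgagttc
Rpl12, chr2:32961632-32961731: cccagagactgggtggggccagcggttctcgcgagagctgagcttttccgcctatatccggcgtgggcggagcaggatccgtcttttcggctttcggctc
Rpl3l, chr17:24727746-24727845: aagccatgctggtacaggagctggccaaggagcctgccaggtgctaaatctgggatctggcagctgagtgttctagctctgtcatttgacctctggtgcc
Rpl39l, chr16:10170148-10170247: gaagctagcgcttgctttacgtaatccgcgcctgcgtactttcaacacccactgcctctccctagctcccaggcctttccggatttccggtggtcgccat

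The run was 14 bases long in Rpl14, 10 in Rplp2 and 9 in Rps9, and in each it includes bases before the annotated start. Rpl12 has a run of C and T that begins at the base after its annotated start. Rpl39l has one that ends at the base before its start. Neither was counted, so the counts of runs depend on the exact annotated base and do not show that these genes lack a tract. Other motifs were searched on both strands of the whole windows. The ETS core CCGGAAG was found in 8 of 23 members (34.8%) and in 9.9% of all genes with a window, and the YY1 core AAGATGGC in 3 of 23 and in 3.2% of all. TATAAA was found in 4 of 23 (17.4%) and in 15.7% of all. The GATA core AGATAA was found in 1 of 23 members, in 1 of the 2 windows of Rpl3l and outside the printed stretch, and in 12.7% of all genes. These are matches of letters, and annotated starts can be off by some bases.

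No ribosomal protein gene differed between the genotypes past the threshold. Of the 28 genes, 0 were called higher and 0 lower in Fog1ki/ki by limma at an adjusted p under 0.05 over all genes, where 0.773% of all genes were called (152 of 19661, with 0.376% higher and 0.397% lower). The smallest adjusted p was 0.422 (limma), for Rpl3l. At an unadjusted p under 0.05, 2 members were higher (Rpl3l and Rps4l) and 0 lower, while 9.57% of all genes passed, 4.99% higher and 4.58% lower. The 95% intervals of the ubiquitous genes lay between -0.58 and 0.58 on the log2 scale. Their levels ran up to 13.09, close to the array maxima of 13.38 to 13.44, and how far the arrays compress differences at such levels was not tested. Intervals included 0 for 26 of 28, the exceptions being Rpl3l and Rps4l. Values of the 2 genotypes were fully apart in 3 members (Rplp0 lower, Rpl3l and Rps4l higher), as in 14.8% of all genes.

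**Figure D1:**
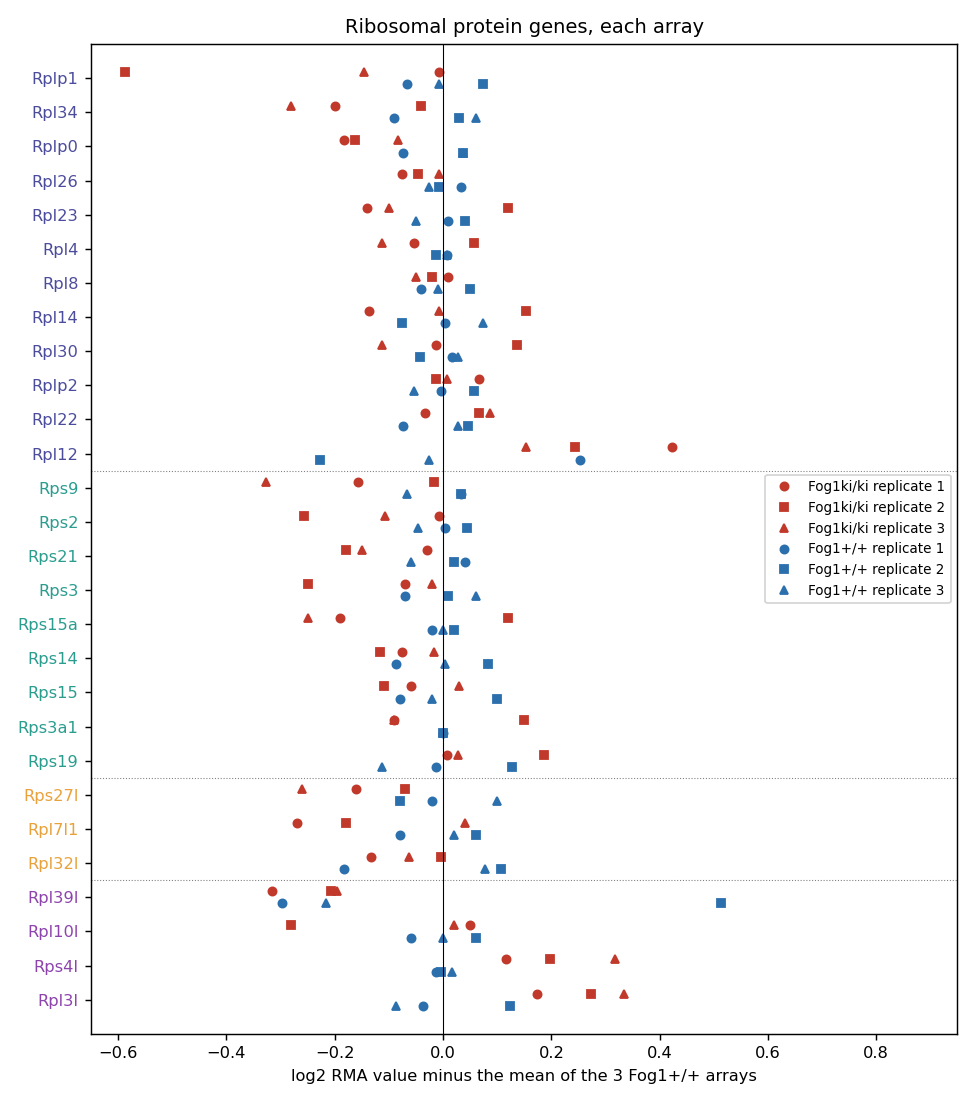
Each of the 28 ribosomal protein genes has a row, with the 3 Fog1ki/ki arrays in red above the 3 Fog1+/+ arrays in blue, and the horizontal axis gives the log2 value minus the mean of the Fog1+/+ arrays. Dotted lines part the large subunit, small subunit, broadly expressed and tissue-restricted genes. The red and blue points are apart in Rplp0, Rps4l and Rpl3l, and Rplp1 in Fog1ki/ki replicate 2 (12.30) lies far to the left.

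The acidic stalk of the large subunit, which recruits translation factors that hydrolyse GTP, is built of Rplp0, Rplp1 and Rplp2. Rplp0, its base, measured 11.97, 11.99 and 12.07 in Fog1ki/ki, against 12.08, 12.19 and 12.19 in Fog1+/+. All Fog1ki/ki arrays were thus below all Fog1+/+ arrays, by a log2 difference of -0.14 (SE 0.09, adjusted p = 0.678 in limma). Rplp1 measured 12.88, 12.30 and 12.74 in Fog1ki/ki, against 12.82, 12.96 and 12.88 in Fog1+/+. Its log2 difference of -0.25 (SE 0.15, adjusted p = 0.661 in limma), the lowest of the 28, rested on Fog1ki/ki replicate 2, and without that array it was -0.077. Its partner Rplp2 measured 11.68, 11.60 and 11.62 in Fog1ki/ki, against 11.61, 11.67 and 11.56 in Fog1+/+, and the genotypes overlapped. Rplp2 had a log2 difference of 0.020, which turned to -0.023 with the arrays centred on their medians.

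Rpl12, which sits beside the stalk base, had the highest difference of all members. It measured 9.11, 8.93 and 8.84 in Fog1ki/ki, against 8.94, 8.46 and 8.66 in Fog1+/+, and Fog1+/+ replicate 1 lay within the Fog1ki/ki arrays. The log2 difference was 0.27 (SE 0.14, 95% interval -0.034 to 0.58, adjusted p = 0.591 in limma). It ran from 0.16 without Fog1+/+ replicate 2 to 0.40 without Fog1+/+ replicate 1. Rpl12 was thus opposite in sign to Rplp0 and Rplp1, and none of the 3 passed.

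The other large subunit proteins were spread around 0. Rpl34 measured 8.41, 8.57 and 8.33 in Fog1ki/ki, against 8.52, 8.64 and 8.67 in Fog1+/+, a log2 difference of -0.17 (SE 0.10, adjusted p = 0.650 in limma), and the genotypes overlapped through Fog1ki/ki replicate 2. Rpl4, which lines the tunnel through which the new peptide leaves, measured 12.98, 13.09 and 12.92 in Fog1ki/ki, against 13.04, 13.02 and 13.04 in Fog1+/+. Rpl8, close to the site of peptide bond formation, averaged 12.20 ± 0.03 in Fog1ki/ki and 12.22 ± 0.05 in Fog1+/+ (SD, n = 3 each). Rpl22, which is needed for αβ T cell development in mice, averaged 10.06 ± 0.06 in Fog1ki/ki and 10.02 ± 0.06 in Fog1+/+. For Rpl14, Rpl23, Rpl26 and Rpl30 the log2 differences lay between -0.043 and 0.0033. The sign of Rpl4, Rpl8, Rpl23 and Rpl26 turned with quantile normalization repeated, and that of Rpl14, Rpl22 and Rpl30 with median centring.

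Among small subunit genes, 8 of 9 had a log2 difference below 0, with no call among them. Rps9 measured 12.49, 12.63 and 12.32 in Fog1ki/ki, against 12.68, 12.68 and 12.58 in Fog1+/+, a log2 difference of -0.17 (SE 0.10, adjusted p = 0.683 in limma). The dimmer probe set of Rps9 disagreed in size, at 12.41, 12.20 and 12.40 in Fog1ki/ki, against 12.24, 12.35 and 12.45 in Fog1+/+, a log2 difference of -0.010. The arrays overlapped in both probe sets of this gene.

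Rps2 and Rps3 lie where the mRNA enters the small subunit. Rps2 measured 10.38, 10.13 and 10.28 in Fog1ki/ki, against 10.39, 10.43 and 10.34 in Fog1+/+ (log2 difference -0.12, SE 0.10, adjusted p = 0.757 in limma). Rps3 measured 12.17, 11.99 and 12.22 in Fog1ki/ki, against 12.17, 12.25 and 12.30 in Fog1+/+ (log2 difference -0.11, SE 0.10, adjusted p = 0.789 in limma). Fog1ki/ki replicate 2 was the lowest array for both, and without it the difference of Rps2 was -0.057. Rps21 measured 12.06, 11.91 and 11.94 in Fog1ki/ki, against 12.13, 12.11 and 12.03 in Fog1+/+ (log2 difference -0.12), and overlapped at 1 array of each genotype. Rps15a, at 10.68, 10.99 and 10.62 in Fog1ki/ki, against 10.85, 10.89 and 10.87 in Fog1+/+ (log2 difference -0.11), had its highest value in Fog1ki/ki replicate 2. Rps15, whose tail reaches the decoding site, had a log2 difference of -0.047, and Rps3a1 one of -0.010. Both of these turned to positive values with quantile normalization repeated.

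The small subunit genes tied to anaemia in humans showed no call either. Rps14 measured 12.64, 12.60 and 12.70 in Fog1ki/ki, against 12.63, 12.80 and 12.72 in Fog1+/+, a log2 difference of -0.070 (SE 0.09, 95% interval -0.28 to 0.14, adjusted p = 0.877 in limma). Rps19 measured 11.54, 11.72 and 11.56 in Fog1ki/ki, against 11.52, 11.66 and 11.42 in Fog1+/+, and was the 1 small subunit gene with a positive log2 difference (0.073, SE 0.10, 95% interval -0.16 to 0.30, adjusted p = 0.882 in limma). For both genes the genotypes overlapped. Of 22 genes listed for Diamond-Blackfan anaemia, 5 were measured (Rps19, Rps15a, Rpl26, Tsr2 and Gata1), and 0 passed. All 5 were among the 4915 brightest genes by mean level. At an unadjusted p under 0.05, 2 of the 5 were lower (Tsr2 and Gata1) and 0 higher. At that p, 4.58% of all genes and 11.5% of the 4915 brightest were lower. Tsr2, which escorts Rps26 to the nascent subunit in yeast and human cells, measured 8.81, 8.59 and 8.60 in Fog1ki/ki, against 9.03, 9.05 and 8.88 in Fog1+/+. All Fog1ki/ki arrays lay below all Fog1+/+ arrays, as in 6.53% of all genes and 17.0% of the 4915 brightest. The log2 difference was -0.32 (SE 0.10, adjusted p = 0.313 in limma). For Gata1, whose arrays were apart in the same direction, the difference was -0.29 (adjusted p = 0.435 in limma).

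**Figure D2:**
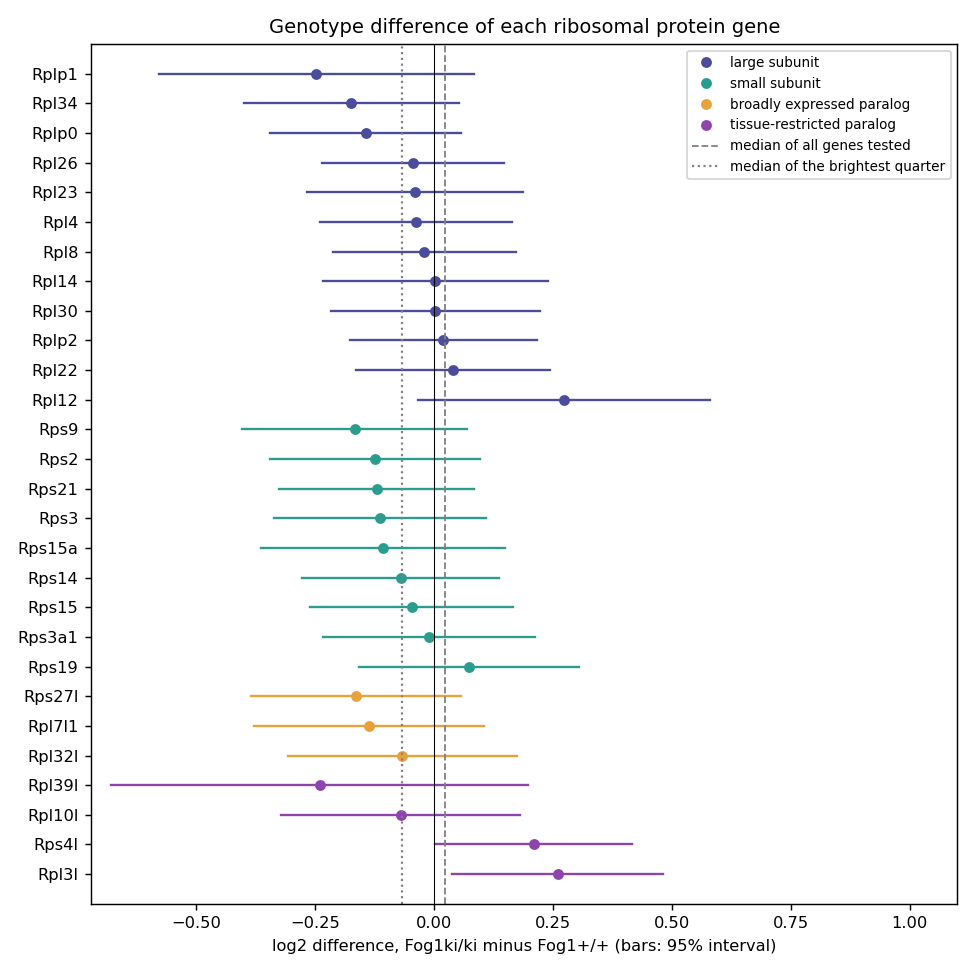
Points give the log2 difference of each ribosomal protein gene, Fog1ki/ki minus Fog1+/+, and bars its 95% interval from limma, coloured by subunit or paralog type. The dashed line is the median of all genes tested (0.023) and the dotted line that of the 4915 brightest genes (-0.067). Only the bars of Rpl3l and Rps4l lie wholly on 1 side of 0.

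The large subunit genes had a median log2 difference of -0.028 and the small subunit genes one of -0.11, beside 0.023 over all genes tested. Over the 21 ubiquitous genes, the median level per array was 12.05, 11.99 and 12.07 in Fog1ki/ki, against 12.13, 12.11 and 12.19 in Fog1+/+. Every Fog1ki/ki array was thus below every Fog1+/+ array, with means of 12.04 ± 0.04 in Fog1ki/ki and 12.14 ± 0.04 in Fog1+/+ (SD, n = 3 each). Each of these medians is the value of the middle gene of its array, and that gene changed between arrays. It was Rpl14 in Fog1ki/ki replicate 1 (12.05) and Rplp0 in replicate 3 (12.07). In Fog1+/+ it was Rps21 in replicate 1 (12.13) and Rplp0 in replicate 3 (12.19). Of the 21 genes themselves, only Rplp0 was lower in every Fog1ki/ki array. The gap between the genotype means of the per-array medians was -0.11, while the median of the 21 log2 differences was -0.043. With quantile normalization repeated the gap was -0.052 and the arrays overlapped, and with median centring it was -0.15 without overlap. The per-array medians of the small subunit were 12.17, 11.99 and 12.22 in Fog1ki/ki, against 12.17, 12.25 and 12.30 in Fog1+/+, and overlapped under all 3 scalings. As deposited they are the values of Rps3, the middle small subunit gene by level in every array. The per-array gap between subunits given below thus takes its small subunit side from Rps3 alone. The per-array medians of the large subunit were 11.83, 11.86 and 11.85 in Fog1ki/ki, against 11.85, 11.89 and 11.88 in Fog1+/+, and overlapped too. With quantile normalization repeated they were higher in every Fog1ki/ki array, at 11.86, 11.87 and 11.89 in Fog1ki/ki, against 11.82, 11.85 and 11.82 in Fog1+/+. The large subunit median minus the small one was 0.078 for the genotype difference, which is within 1 SD of the per-array gap between subunits (0.10). It was -0.011 without Fog1ki/ki replicate 2, so the gap between the subunits rested on that array. No test of the subunit difference was made.

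Level went along with the sign. All 21 ubiquitous members lay in the set of the 4915 brightest genes by mean level, whose median was -0.067, against -0.043 for the ubiquitous members. A log2 difference below 0 was found in 15 of 21 ubiquitous members, in 67.8% of the 4915 brightest genes and in 42.8% of all genes. With quantile normalization repeated, the ubiquitous median was 0.018 and that of the 4915 brightest genes -0.0033. With each array centred on its median they were -0.087 and -0.11. The direction of the median difference of the ubiquitous genes thus depended on the scaling. Of the 4915 brightest genes, 0.855% were called lower by limma and 11.5% were lower at an unadjusted p under 0.05, against 0 of the 21 ubiquitous members for either.

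Fog1ki/ki replicate 2 was the array in which the ribosomal protein genes departed most from their genotype. The mean absolute deviation of the 21 ubiquitous genes from the genotype mean was 0.105 there, 0.068 and 0.070 in Fog1ki/ki replicates 1 and 3 and 0.037 to 0.054 in the Fog1+/+ arrays. The departures ran both ways, as replicate 2 was the highest Fog1ki/ki array for 9 of the 21 genes and the lowest for 7. Such counts were not particular to it: within Fog1+/+, replicate 2 was highest for 10 and replicate 1 lowest for 9. The deviation of this array over all genes was not compared. Fog1ki/ki replicate 2 was highest in Rpl4, Rpl14, Rpl23, Rpl30, Rpl34, Rps3a1, Rps9, Rps15a and Rps19, and lowest in Rplp1, Rplp2, Rps2, Rps3, Rps14, Rps15 and Rps21. Fau, which encodes the small subunit protein S30 fused to a ubiquitin-like protein and lies outside the symbol rule, was low in the same array, at 11.25, 10.86 and 11.30 in Fog1ki/ki, against 11.25, 11.39 and 11.41 in Fog1+/+ (log2 difference -0.21, SE 0.13, adjusted p = 0.668 in limma).

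**Figure D3:**
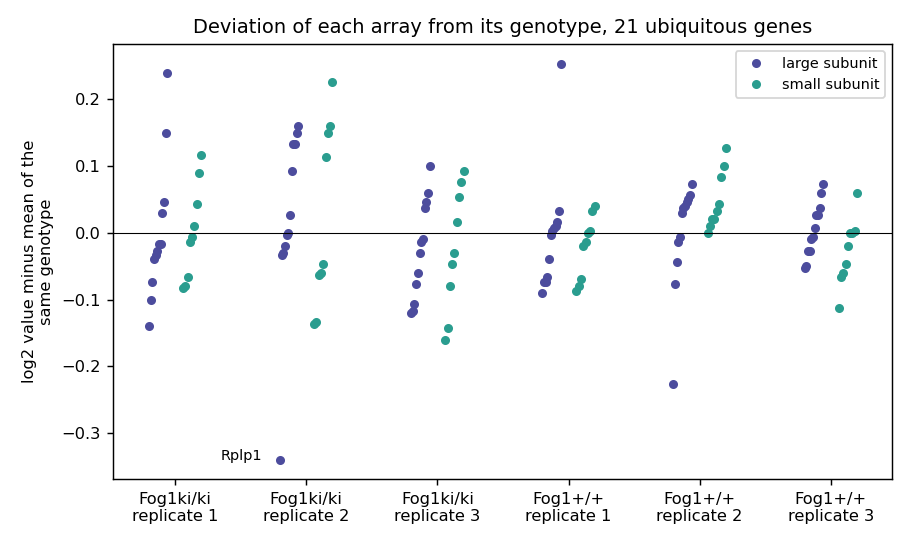
Points give the 21 ubiquitous ribosomal protein genes in each array as log2 value minus the mean of the same genotype, large subunit left and small subunit right within an array. Fog1ki/ki replicate 2 has the widest spread, from -0.34 (Rplp1) to 0.23 (Rps15a).

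The paralogs grouped as tissue-restricted held both members with an interval apart from 0, Rpl3l and Rps4l. Rpl3l, the paralog of Rpl3 in striated muscle, measured 4.96, 5.06 and 5.12 in Fog1ki/ki, against 4.75, 4.91 and 4.70 in Fog1+/+. The arrays did not overlap, with all Fog1ki/ki arrays higher, and the log2 difference was 0.26 (SE 0.10, 95% interval 0.038 to 0.48, adjusted p = 0.422 in limma). These values lie close to the lower quartiles of the arrays (4.81 to 4.92), where no test of signal above background was available. Rps4l, annotated in RefSeq as a transcribed pseudogene, measured 6.74, 6.82 and 6.94 in Fog1ki/ki, against 6.61, 6.62 and 6.64 in Fog1+/+. It too was higher in all Fog1ki/ki arrays, by 0.21 (SE 0.09, 95% interval 0.0029 to 0.42, adjusted p = 0.516 in limma). Its values lay above the array medians (6.02 to 6.15), and no tissue of expression is given for it here, so its place in this group is uncertain. Higher arrays without overlap were seen in 8.31% of all genes.

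Both testis paralogs were dim. Rpl10l, which stands in for the X-linked Rpl10 in male germ cells of mice, measured 4.65, 4.32 and 4.62 in Fog1ki/ki, against 4.54, 4.66 and 4.60 in Fog1+/+ (log2 difference -0.070, SE 0.11, adjusted p = 0.899 in limma). Rpl39l, a paralog of the exit tunnel protein Rpl39, measured 4.04, 4.15 and 4.16 in Fog1ki/ki, against 4.06, 4.87 and 4.14 in Fog1+/+. All 12 values but that of Rpl39l in Fog1+/+ replicate 2 were below the lower quartiles, and that 1 array set the log2 difference of -0.24 (SE 0.19, adjusted p = 0.766 in limma), which was 0.017 without it. The median over the 4 tissue-restricted paralogs was 0.070, against -0.043 over the ubiquitous genes. The difference between these groups was not tested, and the first median rests on 4 genes, of which 2 had a difference above 0 and 2 below. Its sign rested on both genes above 0, Rpl3l and Rps4l. Over the 3 protein-coding paralogs alone, which leaves out Rps4l and is a choice made after seeing the data, the median was -0.070. The 4916 dimmest genes by mean level had a median of 0.047. Of these, 8.71% were higher in every Fog1ki/ki array and 1.48% lower. With quantile normalization repeated, the medians were 0.034 for the 4 tissue-restricted paralogs, 0.018 for the ubiquitous genes and 0.0036 for those dimmest genes. With each array centred on its median they were 0.027, -0.087 and 0.0033. The size of the paralog contrast thus depended on the scaling.

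All 3 paralogs grouped as broadly expressed had a log2 difference below 0, and 0 passed. Rps27l, a paralog of Rps27 that p53 induces in human cells, measured 11.48, 11.57 and 11.38 in Fog1ki/ki, against 11.62, 11.56 and 11.74 in Fog1+/+. Its log2 difference was -0.16 (SE 0.10, adjusted p = 0.661 in limma), and the genotypes overlapped only at replicate 2 of each. Rpl7l1, named for its likeness to Rpl7, measured 8.80, 8.89 and 9.11 in Fog1ki/ki, against 8.99, 9.13 and 9.09 in Fog1+/+ (log2 difference -0.14, SE 0.11, adjusted p = 0.754 in limma). Rpl32l, named for its likeness to Rpl32, measured 8.23, 8.36 and 8.30 in Fog1ki/ki, against 8.18, 8.47 and 8.44 in Fog1+/+ (log2 difference -0.067, SE 0.11, adjusted p = 0.900 in limma). Paralogs and processed copies of ribosomal protein genes can be near-identical to their parents, so a probe of one gene can carry signal of another, and values of all members are uncertain to that extent.

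Other genes of ribosome supply and use gave 0 calls as well. Of 77 measured assembly factors and RNA polymerase I subunits, 0 passed, and at an unadjusted p under 0.05 1 was higher and 11 were lower (14.3%, median log2 difference -0.14). At that p, 4.58% of all genes and 11.5% of the 4915 brightest genes were lower, and 68 of the 77 were among those brightest genes. Nolc1, a nucleolar chaperone of small nucleolar RNPs, measured 9.92, 9.84 and 10.01 in Fog1ki/ki, against 10.26, 10.20 and 10.33 in Fog1+/+ (log2 difference -0.34, SE 0.09, adjusted p = 0.214 in limma). Of 34 translation factors, all among the 4915 brightest genes, 0 passed, and at an unadjusted p under 0.05 5 were lower and 0 higher (14.7% lower, beside 11.5% of the brightest genes, with a median of -0.12). Eif5a, which relieves stalled ribosomes, measured 10.30, 10.24 and 10.19 in Fog1ki/ki, against 10.51, 10.64 and 10.66 in Fog1+/+ (log2 difference -0.36, SE 0.09, adjusted p = 0.177 in limma). For Eif5b, which joins the subunits, the difference was -0.31 (adjusted p = 0.276 in limma), again with every Fog1ki/ki array below every Fog1+/+ array.

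Of 73 mitochondrial ribosomal protein genes, which serve the separate ribosome of mitochondria, 0 passed, and at an unadjusted p under 0.05 11 were lower and 0 higher (15.1% lower, median -0.13). The share was 4.58% in all genes and 11.5% in the 4915 brightest, which held 68 of the 73. Mrpl22 measured 7.40, 7.01 and 7.53 in Fog1ki/ki, against 7.86, 7.69 and 7.84 in Fog1+/+ (log2 difference -0.48, SE 0.14, adjusted p = 0.244 in limma). Mrpl34 had one of -0.31 (adjusted p = 0.253 in limma). The Fog1ki/ki arrays all lay below the Fog1+/+ arrays in 20 of these 73 genes, in 23 of the 77 assembly genes and in 14 of the 34 translation factors, against 1 of the 21 ubiquitous cytosolic ribosomal proteins, 17.0% of the 4915 brightest genes and 6.53% of all genes. No difference between these lists was tested. With quantile normalization repeated the medians were -0.074 for assembly, -0.050 for translation factors and -0.068 for mitochondrial ribosomal proteins, so they kept their sign under that scaling.

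Of 24 genes listed as p53 targets, which respond in mice and humans when free ribosomal proteins bind MDM2, 20 were measured. Cdkn1a, Bax, Gdf15 and Trp53 were not among them. Of the 20, 0 passed, and their median log2 difference was -0.080. At an unadjusted p under 0.05, 5 were lower (25%) and 0 higher, beside 4.58% of all genes lower. Among the 4915 brightest genes, which held 5 of the 20, the share was 11.5%. For Polk, a DNA polymerase, the difference was -0.57 (adjusted p = 0.132 in limma). Eda2r, a receptor of the TNF receptor family, lay near the lower quartiles of the arrays, at 4.65, 4.63 and 4.44 in Fog1ki/ki, against 4.83, 5.26 and 4.84 in Fog1+/+ (log2 difference -0.40, adjusted p = 0.332 in limma).

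**Figure D4:**
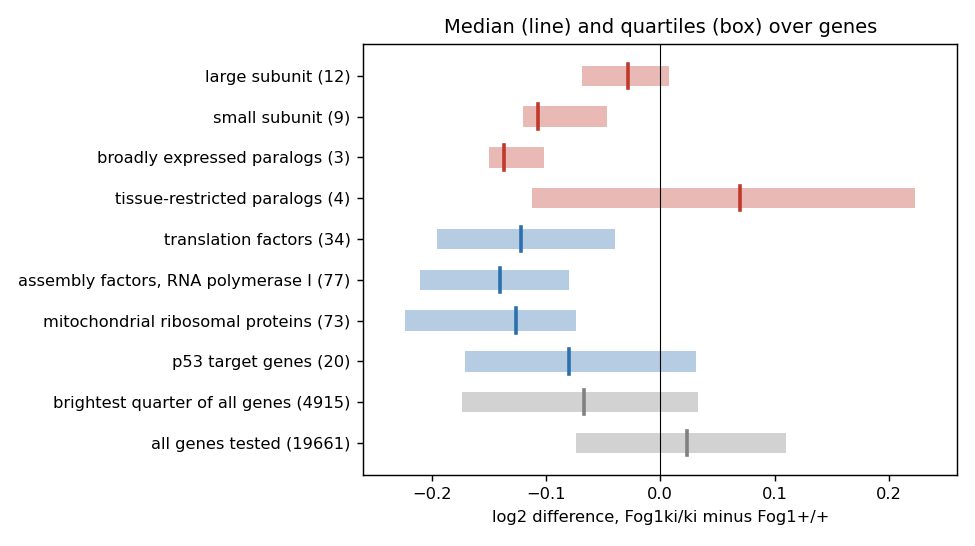
Boxes span the quartiles of the log2 difference (Fog1ki/ki minus Fog1+/+) over the genes of each list, lines mark medians, and the number of genes measured stands in parentheses. Medians of the assembly (-0.14), translation factor (-0.12) and mitochondrial ribosomal (-0.13) lists lie left of that of the large subunit (-0.028), and the 4915 brightest genes lie at -0.067.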

How the data were processed

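The deposited values are log2 values per probe set with 2 decimals, 1 column per array. RMA is named per the submitters' processing notes. Which program ran it, and how, is not given in the sources used here. RNA was amplified with the WT-Ovation Pico system and labelled with biotin, per the labels' protocols. Precision is limited by the number of arrays.

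Of 25668 probe sets, 20777 had 1 gene symbol in the platform annotation, 232 several and 4659 none. The brightest probe set over all 6 arrays stood for each of 19661 genes, with no filter. Genotypes were compared over all of them with limma 3.58.1 in R 4.3.3 (lmFit, eBayes, two-sided, Benjamini-Hochberg, adjusted p under 0.05), after testing on simulated data. With 3 arrays a group, the smallest p of an exact permutation test is 0.1, so none was run. Groups of genes are given as counts and medians, with no test.

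Members, lists and alternatives were chosen with earlier results of these data known. Named genes were all paralogs, the 6 highest and 6 lowest ubiquitous genes by difference, the stalk and anaemia-linked genes, and up to 2 genes per list with the smallest p; parents of the paralogs were not analysed here. Further members were named to account for each. Sequences are from RefSeq tables on GRCm38.p6, read with Python 3.11.15 and pandas 2.3.3. Replicate numbers were not taken to pair the arrays. Alternatives were other scalings, a filter on dim genes, averaged probe sets, other variance models, a replicate block, other thresholds and arrays left out.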

Additional observations from a re-analysis of the deposited data

How the results depend on the processing

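No ribosomal protein gene was called in any of the 15 refits (lowest limma adjusted p 0.261), and at an adjusted p under 0.1 the counts were also 0 in each direction. At an unadjusted p under 0.05, 2 were higher and none was lower, and 1882 of all genes passed in place of 152. Leaving out each array in turn gave 60 to 134 calls over all genes, and leaving out both replicate 3 arrays 24. The large subunit median was 0.054 with quantile normalization repeated, -0.072 with arrays centred on medians, -0.0050 without both replicate 3 arrays and -0.068 to -0.0017 with each array left out in turn. The ubiquitous median was 0.018 with quantile normalization repeated and -0.087 with median centring, and the tissue-restricted one 0.21 without the dimmest genes by mean level, a filter that left 1 of 4, and -0.070 over the protein-coding ones, an alternative chosen after seeing the data. The small subunit median ran from -0.15 to -0.024 and that of all members from -0.10 to 0.0044. With the replicate number as a block the medians cannot change, as each number holds 1 array of each genotype. They stayed at -0.028 and -0.11 for the subunits, which is no check of them. The block can change only the p-values, and with it 0 members and 133 of all genes were called. Deviations of same-numbered arrays correlated at 0.068, -0.0076 and 0.13 across genes.

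In 16 of 28 genes the sign held in every setting. With quantile normalization repeated it turned in Rpl23 (0.044), Rpl26 (0.027), Rpl4 (0.018), Rpl8 (0.065), Rps15 (0.012) and Rps3a1 (0.072). With median centring it turned in Rpl14 (-0.040), Rpl22 (-0.0033), Rpl30 (-0.040) and Rplp2 (-0.023). Rps3a1 was 0.023 with array weights and 0.030 without both replicate 3 arrays, where Rpl4 was 0.0050. With each array left out in turn, Rpl10l ran from -0.13 to 0.035, Rpl14 from -0.072 to 0.073, Rpl23 from -0.12 to 0.010, Rpl30 from -0.063 to 0.062, Rpl39l from -0.39 to 0.017, Rpl4 from -0.083 to 0.0017, Rpl8 from -0.040 to 0.0050, Rplp2 from -0.0067 to 0.048, Rps15 from -0.087 to 0.0033 and Rps3a1 from -0.090 to 0.030. The cause was not tested.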

Other observations

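Some probe sets name a ribosomal protein together with another gene, or a numbered copy, and entered none of the counts above. The probe set shared by the small nucleolar RNA gene Snord34 and its host Rpl13a measured 9.21, 8.54 and 8.76 in Fog1ki/ki, against 8.43, 8.56 and 8.44 in Fog1+/+, a log2 difference of 0.36 (limma adjusted p = 0.589 over all probe sets). Another probe set, of Rpl13a with Zfp526, measured 13.03, 12.83 and 13.05 in Fog1ki/ki, against 13.05, 13.06 and 13.04 in Fog1+/+, with Fog1ki/ki replicate 2 the lowest. The one shared by Snord68 and Rpl13 was low in replicate 3 of each genotype, at 8.29, 8.42 and 7.58 in Fog1ki/ki, against 7.95, 8.05 and 7.06 in Fog1+/+. Copies annotated as Rps19-ps3 (log2 difference 0.18) and Rpl14-ps1 (-0.023) overlapped between genotypes.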
